A study of Mus musculus with 3 samples.

Results

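The genes described here are 10 secreted proteins of WNT signaling in the embryonic mouse soft palate, chosen by symbol from the 32285 genes of the count matrices. They are the 5 ligands Wnt5a, Wnt16, Wnt11, Wnt4 and Wnt6 and the 5 secreted inhibitors Sfrp1, Sfrp2, Dkk2, Dkk3 and Frzb, and all 10 were present in the matrices. Single cells of the soft palate at E14.5 were measured in 2 control libraries and in 1 mutant library with the genotype Osr2-Cre;Alk5fl/fl, in which Cre is expressed from the Osr2 locus and deletes Tgfbr1 (older symbol Alk5), the type I receptor of TGF-β, in the palatal mesenchyme. The controls carried floxed Tgfbr1 alleles without the deletion, according to the figure legends of the study (Tgfbr1 fl/fl or Tgfbr1 fl/+). The labels give C57BL/6 as the strain of all 3 libraries. Whether a library pooled several embryos is not given in the sources used here.

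WNT ligands are lipid-modified proteins that act over short distances on Frizzled receptors. Ligands that work through β-catenin use LRP5 or LRP6 as co-receptors, whereas Wnt5a and Wnt11 are best known for β-catenin-independent signaling, which Ror2 can mediate. SFRP proteins and Frzb bind ligands outside the cell, and Dkk2 acts on LRP5 and LRP6. Dkk3 is listed with the inhibitors as a member of the DKK family. In the palate, Wnt5a is known for its role in mesenchymal cell behavior during shelf growth.

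Levels are given as CPM, which is the number of UMIs of a gene per 1000000 UMIs summed over the gated cells of one type in one library. Cells were assigned to types by marker genes, none of which was one of the 10 genes, and are called "-like" for that reason. With 1 mutant library no test between genotypes was possible, and no p-value or standard error is given. Instead, each log2 ratio of the mutant to the mean of the controls on the log2 scale was compared with the log2 gap between the controls. The gap is not printed beside every ratio. A gene was called where the mean over the libraries was at least 10 CPM, the mutant lay outside both controls, the ratio exceeded the gap and the fold was at least 1.5. Where a control was left out there was no gap to exceed, so the rule was looser. The 95% interval in parentheses after a level was computed from its UMIs by the exact Poisson method, that of a share of cells by the Clopper-Pearson method, and both describe counting error alone.

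The libraries differed in depth, in the numbers of some cell types and in the level of a muscle gene outside muscle. They held 2816, 4067 and 8690 barcodes and 22624711, 27814907 and 63505144 UMIs in control 1, control 2 and the mutant, of which 2058, 3689 and 7514 cells were kept, and between 12 and 37 cell barcodes were shared between pairs of libraries. Palatal mesenchymal-like cells numbered 1346, 2271 and 4137. Neuronal-like cells numbered 10, 9 and 263, cartilage-like cells 13, 11 and 179, glial-like cells 8, 23 and 100, and endothelial-like cells 16, 78 and 211. Myogenic-like cells numbered 70, 90 and 75. Whether the tissue taken was alike in the 3 libraries was not tested. The muscle gene Actc1 stood at 62.5 CPM in palatal mesenchymal-like cells of control 1, at 9.37 CPM in control 2 and at 1.82 CPM in the mutant. Myogenic-like cells held 1268372, 813244 and 530678 of the 21027385, 25338715 and 54306105 UMIs kept. This gene alone therefore does not rank the libraries by all free RNA. The part of free RNA in the differences between libraries was not tested. Tgfbr1 itself was at 56.3, 61.6 and 51.5 CPM in these cells. The libraries count the 3′ end of transcripts, and the deleted part of the gene was not located here, so this level does not check the genotype.

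All 10 genes were matched by identifier to the GENCODE annotation of GRCm38 as protein-coding genes. Wnt5a lies on chromosome 14 (28504750 to 28527448), Wnt16 on chromosome 6 (22288227 to 22298522), Dkk2 on chromosome 3 (132085292 to 132180304) and Frzb on chromosome 2 (80411970 to 80447625, minus strand). None of the 10 overlapped another annotated gene on its own strand. RefSeq promoter sequences of GRCm38.p6 were matched for 7 of the 10 genes, and those of Wnt5a, Sfrp1 and Dkk3 were not in the table. The promoters of 3 genes with the larger differences described below are shown 5′ to 3′ on the gene's strand, from chr6:22287977-22288276 (plus strand), chr3:132085042-132085341 (plus strand) and chr2:80447347-80447646 (minus strand). Capitals mark the TCF/LEF core, CTTTGA on either strand.
Wnt16: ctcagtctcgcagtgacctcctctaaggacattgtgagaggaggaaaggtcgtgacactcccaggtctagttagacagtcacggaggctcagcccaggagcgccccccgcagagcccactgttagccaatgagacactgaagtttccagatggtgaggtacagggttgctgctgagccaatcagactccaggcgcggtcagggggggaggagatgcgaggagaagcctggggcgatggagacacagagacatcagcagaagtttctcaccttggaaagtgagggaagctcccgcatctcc
Dkk2: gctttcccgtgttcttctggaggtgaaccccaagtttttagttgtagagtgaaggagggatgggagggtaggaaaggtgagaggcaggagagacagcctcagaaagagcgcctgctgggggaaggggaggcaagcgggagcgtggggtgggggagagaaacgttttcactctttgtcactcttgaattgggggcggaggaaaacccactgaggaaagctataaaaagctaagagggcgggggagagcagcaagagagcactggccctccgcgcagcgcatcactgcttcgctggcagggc
Frzb: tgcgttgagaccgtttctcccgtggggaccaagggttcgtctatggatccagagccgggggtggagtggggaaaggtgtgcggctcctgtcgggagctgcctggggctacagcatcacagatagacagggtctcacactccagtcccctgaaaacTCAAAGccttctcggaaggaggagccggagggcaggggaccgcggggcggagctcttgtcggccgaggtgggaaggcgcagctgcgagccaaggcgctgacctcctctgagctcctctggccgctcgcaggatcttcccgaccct

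The promoters were searched on both strands for the TCF/LEF core CTTTGA, the SMAD half-site CAGACA and the cyclic AMP response element TGACGTCA, which were found in 16.0%, 21.0% and 1.79% of the 32851 promoters of this length. The Frzb promoter held 1 TCF/LEF core, and those of Wnt16 and Dkk2 held none of the 3 motifs. Of the others, Sfrp2 held 1 SMAD half-site, one of the 2 Wnt11 promoters held 1 TCF/LEF core, and Wnt4 and Wnt6 held no match. A match describes letters in this window and is not evidence of binding, and the lack of one says only that the letters are not there.

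The first question was where each gene was expressed. In 6 of the 10 genes (Wnt5a, Wnt16, Wnt11, Sfrp2, Dkk2 and Frzb) the lowest of the 3 libraries in palatal mesenchymal-like cells was above the highest in epithelial-like cells. Wnt4 and Wnt6 were the reverse. Wnt4, a ligand with roles in epithelial and mesenchymal tissues, had epithelial-like levels of 103, 103 and 63.4 CPM (control 1, control 2 and mutant, the order used throughout), while its mesenchymal-like levels were 13.4, 10.4 and 5.99 CPM. Wnt6, a ligand typical of surface ectoderm, had epithelial-like levels of 105, 65.6 and 102 CPM and mesenchymal-like levels of 3.55, 1.45 and 1.73 CPM. For both ligands the epithelial-like range lay above those of the other 6 of 7 groups compared (midline-like, perimysial-like, progenitor-like, no subtype, myogenic-like and myeloid-like). Sfrp1 and Dkk3 were found in both compartments with overlapping ranges.

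Myeloid-like cells, which should lack these genes, served as the background of free RNA. Wnt5a was at 4.32, 1.51 and 0 CPM there, where the 0 UMIs of the mutant allow a level of up to 3.89 CPM (3 UMIs). Sfrp2 was the highest of the 10 there, at 58.3, 40.8 and 19.5 CPM, and its palatal mesenchymal-like levels of 625, 947 and 725 CPM were all above these. After thinning each cell to 2000 UMIs, 14.4%, 13.3% and 7.96% of palatal mesenchymal-like cells had a Wnt5a UMI (unthinned shares were 41.7%, 30.9% and 22.0%), whereas 0 of 49, 93 and 134 thinned myeloid-like cells had one, which, at 3 cells of each total, allows shares of cells with a UMI of up to 6.12%, 3.23% and 2.24%. The median depth before thinning was 8101, 5279 and 5591 UMIs in the palatal mesenchymal-like cells and 2801, 5717 and 5124 UMIs in the myeloid-like cells.

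Among the 4 mesenchymal subtype groups with at least 50 cells in each library, Wnt16 was highest in midline-like cells in all 3 libraries. Those cells were gated by Meis2, Lsp1 and Sostdc1, and Wnt16 was left off that marker list only as one of the genes described here. A high Wnt16 level there could thus be foreseen and is not an independent result. Its level there was 48.3 CPM in control 1, 62.3 CPM in control 2 and 36.7 CPM in the mutant, and relative to the other mesenchymal-like cells of the same library it was 2.51-fold, 1.51-fold and 2.76-fold higher. The midline-like level was above the perimysial-like level in all 3 libraries. Frzb and Sfrp2, by contrast, differed from the other mesenchymal-like cells in the midline-like cells by less than 1.5-fold in every library. Tendon-like cells, with 29 cells in control 1, were outside this ranking. They held Wnt16 at 69.9, 62.9 and 14.6 CPM, above the midline-like level in both controls and below it in the mutant.

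The second question was how the genes differed in the mutant over all palatal mesenchymal-like cells. Of the 8 genes that reached 10 CPM, 3 were called, all lower in the mutant, where 5.64% of the 8494 genes tested were called, 4.0% lower and 1.64% higher. The higher share of these calls was 29.0%, but 52.7% with TMM factors or without control 2, 17.6% where each cell had the same weight and 17.4% in thinned cells. The median log2 ratio of the 8 genes was -0.33 and that of all genes tested was -0.05. As sums over cells, these levels cannot tell fewer expressing cells from less RNA per cell.

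Wnt5a was the clearest. It stood at 73.8 CPM (69.3 to 78.6) in control 1, 72.7 CPM (68.4 to 77.2) in control 2 and 41.8 CPM (39.6 to 44.1) in the mutant, with a log2 ratio of -0.81 where the controls were 0.02 apart. The controls were almost level and the mutant lay below both. Wnt16 was at 24.1 CPM (21.5 to 26.9), 46.4 CPM (43.0 to 50.1) and 16.0 CPM (14.7 to 17.5), with a log2 ratio of -1.06 and a gap of 0.95. The controls of Wnt16 differed nearly as much from each other as the mutant did from their mean. Its call was lost where each cell was given the same weight (log2 ratio -0.84, gap 1.03), while leaving out control 1 moved its log2 ratio to -1.54 and leaving out control 2 to -0.59.

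Of the other ligands, Wnt11 and Wnt4 were near the limit of 10 CPM and Wnt6 was further under it, with a mean of 2.24 CPM. Wnt11 was at 12.4, 8.96 and 9.07 CPM, with the mutant between the controls. Wnt4 was at 13.4, 10.4 and 5.99 CPM and Wnt6 at 3.55, 1.45 and 1.73 CPM, and both had a mean under 10 CPM and were not compared. The mean of Wnt4 was 9.94 CPM. With doublets kept, with hemoglobin and mitochondrial UMIs left out and with the stricter gate, Wnt4 passed the limit and was called lower. Its log2 ratio with the stricter gate was -0.90. In myeloid-like cells Wnt4 was at 10.8, 6.05 and 0 CPM, which in control 1 was close to its mesenchymal-like level. The part of free RNA in these Wnt4 values was not tested.

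Among the inhibitors, Dkk2 was lower in the mutant. It was at 166 CPM (159 to 173) in control 1, 111 CPM (106 to 116) in control 2 and 82.7 CPM (79.6 to 85.9) in the mutant, a log2 ratio of -0.71 and a gap of 0.58. The Dkk2 call was lost with TMM factors (log2 ratio -0.60, gap 0.69), in thinned cells (-0.74, gap 0.76) and without control 1 (-0.42). Frzb, which binds WNT ligands outside the cell, was at 37.9 CPM (34.7 to 41.4), 63.9 CPM (59.9 to 68.2) and 81.9 CPM (78.8 to 85.1), so that the mutant was above both controls, but the log2 ratio of 0.73 did not exceed the gap of 0.75. With TMM factors Frzb was called higher (log2 ratio 0.85, gap 0.65).

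Sfrp1, Sfrp2 and Dkk3 were not called. Sfrp1 was at 96.9, 181 and 96.6 CPM, so that the mutant was level with control 1 and below control 2, and it was called lower only where control 1 was left out (log2 ratio -0.90). Sfrp2 was at 625, 947 and 725 CPM, between the controls. Dkk3 was at 20.5, 33.1 and 36.3 CPM, above both controls, with a log2 ratio of 0.48 that was less than the gap of 0.69. Dkk3 was called higher with TMM factors (log2 ratio 0.59) and without control 2 (0.83), as was Frzb without control 2 (1.11).

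**Figure D1:**
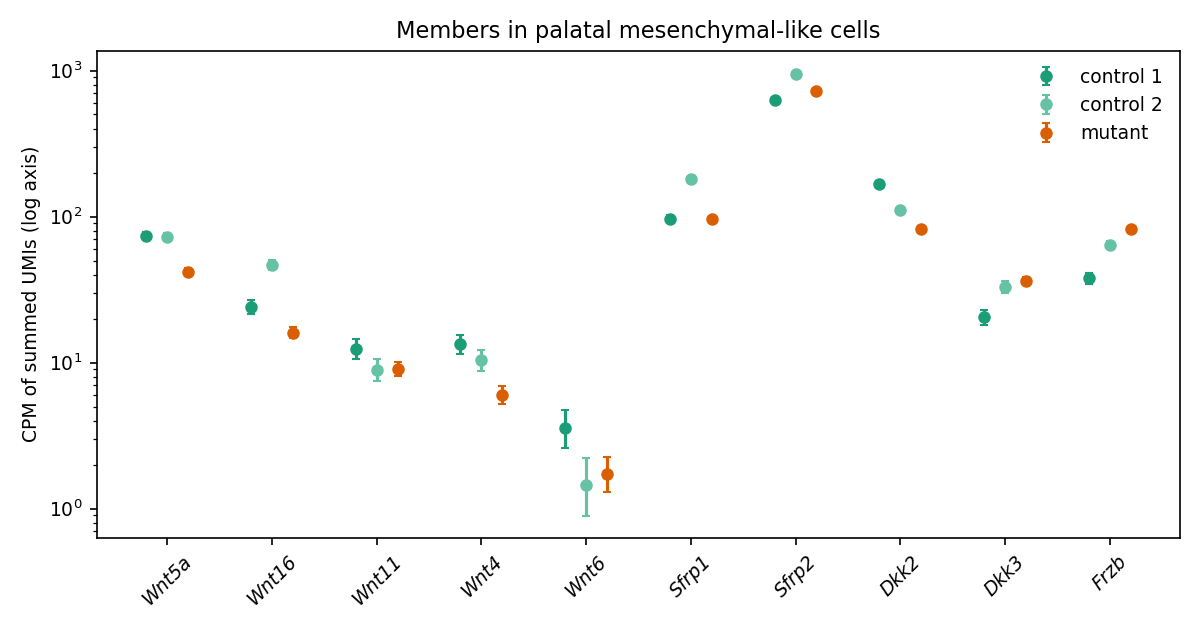
Points give the CPM of each gene, on a log axis, summed over palatal mesenchymal-like cells in control 1, control 2 and the mutant, and bars are 95% exact Poisson intervals. The mutant Wnt5a level of 41.8 CPM sits below both controls, which are close to each other, while the controls of Wnt16, Sfrp1 and Frzb are far apart.

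Because the libraries held different shares of some mesenchymal subtypes, the comparison was repeated within subtypes. The perimysial-like cells, named for the connective tissue cells around forming muscle, made up 16.9%, 7.18% and 5.08% of the palatal mesenchymal-like cells in control 1, control 2 and the mutant. Cells that passed several of the perimysial, midline, osteogenic and tendon gates were placed in no subtype. They numbered 189, 162 and 480 (14.0%, 7.13% and 11.6%). Cells with exactly 2 perimysial markers numbered 249, 176 and 329, of which 148, 121 and 155 were perimysial-like. The perimysial-like shares are therefore not those of all cells that passed the gate. The subtypes were also given equal weight, an alternative chosen after seeing the data. Wnt5a, Wnt16 and Dkk2 were then still called, with log2 ratios of -0.85, -1.02 and -0.67. This mean included tendon-like cells (29 in control 1) and osteogenic-like cells (49 in control 2), which were too few for the counts elsewhere. Wnt16 was at 69.9, 62.9 and 14.6 CPM in tendon-like cells. Without alternative settings it was not called in any subtype group with at least 50 cells in each library.

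Among the groups with at least 50 cells in each library, perimysial-like cells (228, 163 and 210 cells) held the largest differences of the inhibitors. Of the 9 genes that reached 10 CPM there, 5 were called, where 13.5% of the genes tested were called. Dkk2 was at 343 CPM (317 to 370) in control 1, 185 CPM (160 to 213) in control 2 and 80.1 CPM (67.0 to 94.9) in the mutant, a log2 ratio of -1.65 and a gap of 0.89. Frzb went the other way, at 16.4 CPM (11.2 to 23.1), 31.6 CPM (21.7 to 44.4) and 90.9 CPM (77.0 to 107), which was 4.00-fold the mean of the controls on the log2 scale, with a gap of 0.95 between them. The mutant was outside both controls for each gene, and both stayed called with other cell filters, doublets kept, equal weight of cells, hemoglobin and mitochondrial UMIs left out, thinning, TMM factors and either control left out. Leaving out control 1 gave a Dkk2 log2 ratio of -1.21 and leaving out control 2 gave -2.10, and that of Frzb was 1.53 and 2.47. With a control left out the rule has no gap, and these calls follow from the levels above.

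Dkk3, a DKK family member, was at 18.4 CPM (12.9 to 25.5), 18.2 CPM (10.9 to 28.4) and 37.9 CPM (29.1 to 48.5) in perimysial-like cells, with a log2 ratio of 1.05 where the controls were 0.02 apart. Wnt5a was at 57.4, 81.3 and 39.1 CPM, a log2 ratio of -0.80 with a gap of 0.50. Its call was lost without control 2 (-0.55) and in cells with 3 or more of the 4 markers (-0.36, gap 0.52). Wnt11 was at 16.4, 11.5 and 9.03 CPM, a log2 ratio of -0.60 (gap 0.51) that rested on 32, 12 and 15 UMIs. The Wnt11 call was lost with TMM factors, with doublets kept, in thinned cells (-0.10) and without control 1. Sfrp2 was at 1072, 1054 and 956 CPM and Sfrp1 at 154, 205 and 148 CPM, and neither was called.

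**Figure D2:**
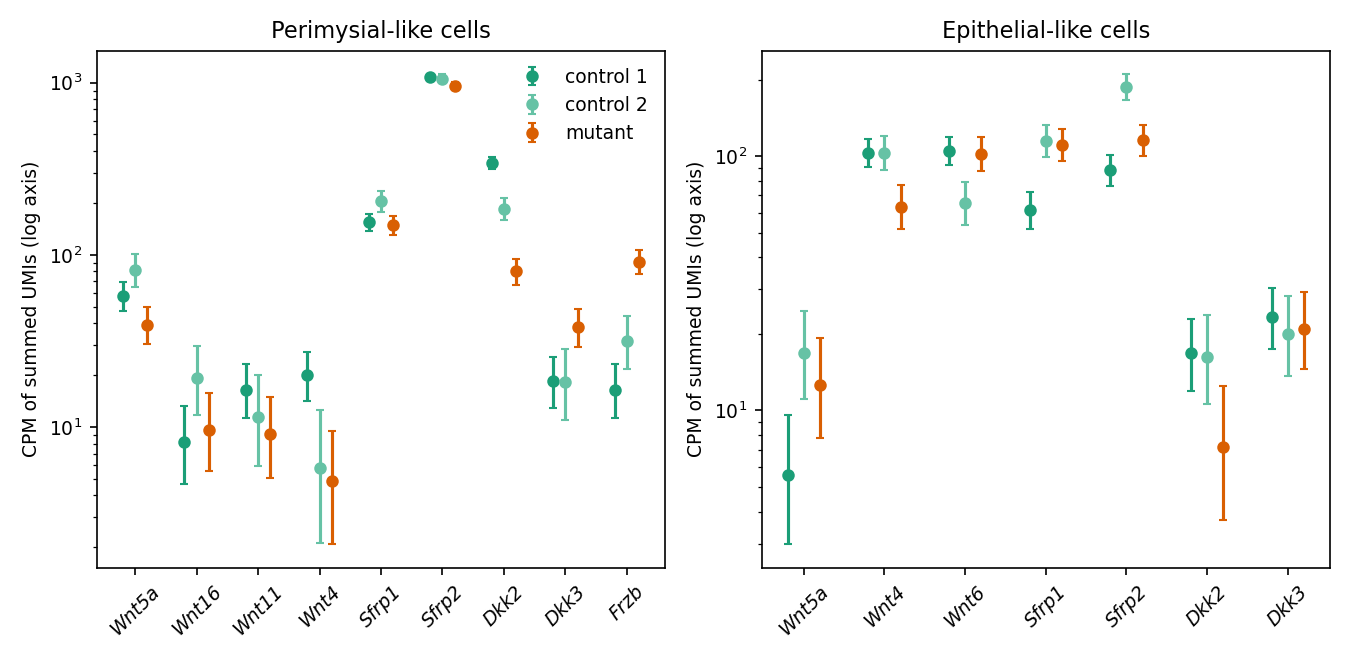
Points give CPM on a log axis in perimysial-like cells (left) and epithelial-like cells (right) of control 1, control 2 and the mutant, with 95% exact Poisson intervals, for the genes measured at or near 10 CPM there. Dkk2 is lower and Frzb higher in the mutant perimysial-like cells, and Wnt4 is lower in the mutant epithelial-like cells.

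Dkk2 and Frzb were also set against the rest of the mesenchyme of the same library, which included the cells that passed several subtype gates. Dkk2 was 2.53-fold and 1.76-fold higher in perimysial-like cells than in the other mesenchymal-like cells of control 1 and control 2, and 0.967-fold in the mutant. Frzb was at 0.394-fold and 0.475-fold of the other mesenchymal-like cells in the controls and at 1.12-fold in the mutant. In the mutant, the perimysial-like level of both genes was therefore close to that of the other mesenchymal-like cells.

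The markers that chose these cells also moved. In perimysial-like cells, Agtr2 was at 414, 345 and 176 CPM and Hic1 at 180, 148 and 105 CPM, both lower in the mutant, whereas Ebf2 was at 110, 172 and 139 CPM and Meox1 at 25.1, 69.9 and 47.0 CPM, both between the controls. The progenitor markers Eya4, at 18.4, 25.8 and 103 CPM, and Tfap2b, at 1.02, 30.6 and 67.4 CPM, were higher in the mutant perimysial-like cells. Their part in the differences of Dkk2 and Frzb was not tested. Among cells with 3 or more of the 4 perimysial markers (80, 42 and 55 cells), an alternative chosen after seeing the data, Dkk2 was at 336, 180 and 79.9 CPM and Frzb at 17.1, 26.2 and 70.1 CPM, with log2 ratios of -1.62 and 1.73. In these cells Dkk2, Dkk3 and Frzb were still called, and Wnt5a and Wnt11 were no longer called. Sfrp2 (1085, 1275 and 726 CPM) and Wnt4 (23.6, 9.83 and 5.84 CPM) were called lower as well. The Wnt4 levels rested on 18, 3 and 3 UMIs. The share of all genes called in these cells was not counted.

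**Figure D3:**
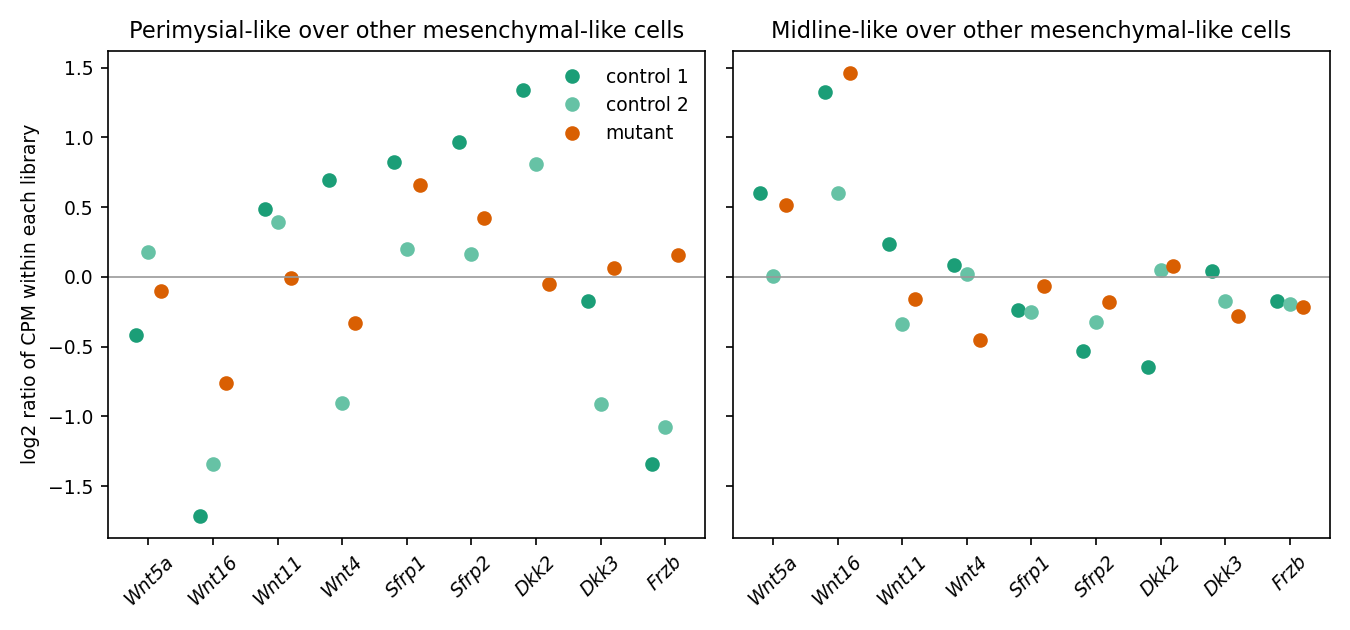
Each point is the log2 ratio of a gene's CPM in perimysial-like (left) or midline-like (right) cells to that in the other mesenchymal-like cells of the same library, with 0 as equal. In the perimysial-like cells Dkk2 is above 0 and Frzb below 0 in both controls, and both are near 0 in the mutant, while Wnt16 is above 0 in the midline-like cells of all 3 libraries.

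In the other subtypes Wnt5a was the gene most often called. In midline-like cells, 7.98% of the genes tested were called. Wnt5a was at 103, 72.9 and 56.9 CPM there (log2 ratio -0.61, gap 0.50) and was the only gene of the 10 called. Frzb, at 34.2, 57.6 and 71.7 CPM, was called there with TMM factors, where each cell had the same weight, in thinned cells and without control 2. The Wnt5a call was lost with TMM factors, where each cell had the same weight, and without control 1. Wnt16, with 48.3, 62.3 and 36.7 CPM and a log2 ratio of -0.58, was just under the 1.5-fold limit, and it was called with doublets kept, with hemoglobin and mitochondrial UMIs or dividing cells left out, and without control 1. Dkk2 was also called there with dividing cells left out (log2 ratio -0.68).

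In progenitor-like cells, where 8.89% were called, Wnt5a was at 74.9, 67.4 and 35.8 CPM (log2 ratio -0.99, gap 0.15), with the mutant below both controls. Wnt4 was at 13.2, 19.1 and 4.04 CPM (log2 ratio -1.98, gap 0.53), from 12, 32 and 15 UMIs. The Wnt4 mean fell under 10 CPM in thinned cells. The myeloid-like level of Wnt4 was 10.8, 6.05 and 0 CPM, so that in control 1 the progenitor-like level was near that background. Frzb was at 40.8, 96.7 and 110 CPM and was not called. In mesenchymal-like cells with no subtype, where 9.99% were called, Wnt5a was at 76.5, 79.2 and 36.0 CPM (log2 ratio -1.11, gap 0.05). Dkk2 was at 154, 115 and 88.5 CPM (log2 ratio -0.59, gap 0.43). The Dkk2 call there was lost with TMM factors, where each cell had the same weight, in thinned cells and without control 1.

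Wnt5a was thus lower in the mutant than in both controls in each of the 4 subtype groups compared. The Wnt5a calls in progenitor-like cells and in cells with no subtype were kept with the same filters, weights, scaling and left-out controls as above. Osteogenic-like cells had 49 cells in control 2 and tendon-like cells 29 cells in control 1, so their values are given without a place in the counts. Wnt5a was at 64.4, 43.5 and 13.7 CPM in osteogenic-like cells (log2 ratio -1.95). In tendon-like cells it was at 57.6, 62.9 and 52.0 CPM, a log2 ratio of only -0.21 that did not meet the call rule. Wnt16 was at 69.9, 62.9 and 14.6 CPM in tendon-like cells. Its mean in osteogenic-like cells was 5.22 CPM, under the limit of 10 CPM, and it was not compared there.

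**Figure D4:**
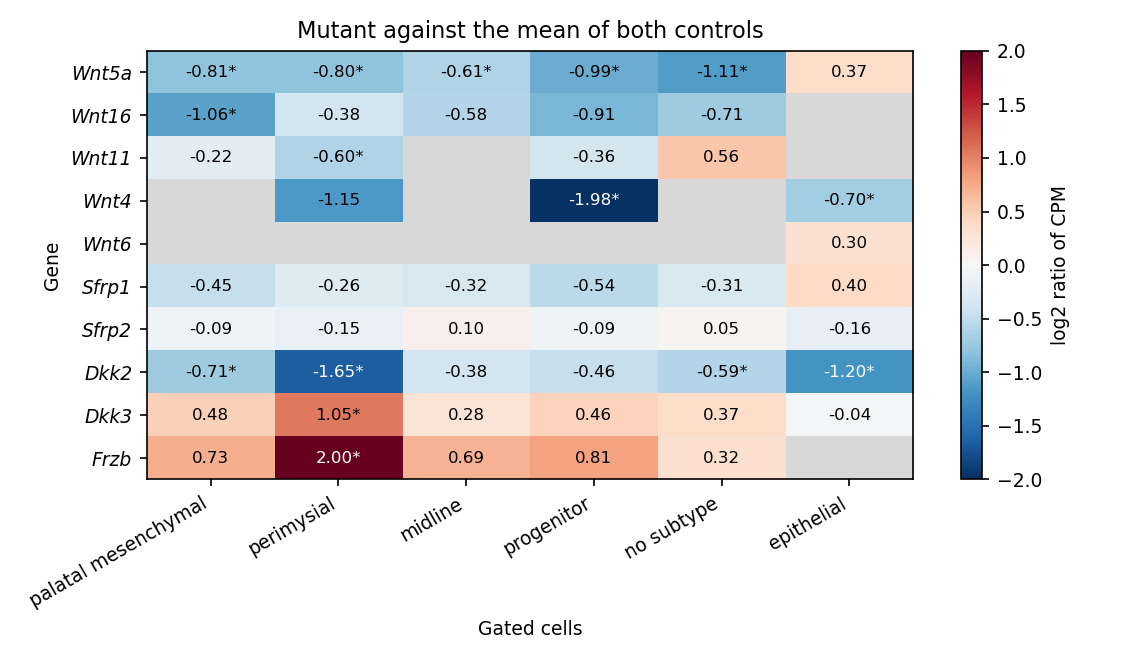
Each cell of the grid gives the log2 ratio of the mutant to the mean of both controls for 1 gene in 1 group of cells, with an asterisk where the gene was called and gray where its mean was under 10 CPM. Wnt5a is negative in all 5 mesenchymal columns, and the perimysial-like column holds the largest values of Dkk2 and Frzb.

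In epithelial-like cells (146, 153 and 234 cells), where 15.8% of the genes tested were called, 2 of the 7 genes that reached 10 CPM were called. Wnt4 was at 103 CPM (90.3 to 117), 103 CPM (87.9 to 120) and 63.4 CPM (51.9 to 76.6), a log2 ratio of -0.70. The controls were level and the mutant lay below both. Dkk2 was at 16.8, 16.2 and 7.17 CPM, which is 39, 26 and 12 UMIs, a log2 ratio of -1.20. Its myeloid-like level was 15.1, 1.51 and 1.30 CPM, so that in control 1 the epithelial-like level was near that background. In thinned cells, 20.4%, 13.7% and 10.5% of epithelial-like cells had a Wnt4 UMI. The interval of the mutant (6.83% to 15.2%) overlapped those of control 1 (14.1% to 28.0%) and control 2 (8.70% to 20.2%). Median depth in these cells was 12410, 7711 and 5993 UMIs.

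Levels were also compared between dividing and other cells. Within each library, palatal mesenchymal-like cells with dividing markers were compared with those that had none. Wnt5a was 0.963-fold, 0.835-fold and 1.19-fold as high in dividing cells, and Frzb was 1.17-fold, 1.09-fold and 1.25-fold as high. The Wnt5a level was 44.7 to 71.8 CPM over the libraries in dividing cells and 37.7 to 82.6 CPM in the others. Wnt16 was 0.552-fold, 0.782-fold and 0.972-fold as high in dividing cells.

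Other genes of the pathway were taken from a list of 65 by role, of which 31 reached 10 CPM in palatal mesenchymal-like cells. Of these 3 were called, 1 higher and 2 lower, where 5.64% of all genes tested were called. None of the 14 other ligands reached 10 CPM, and none of the 6 secreted modulators that did was called. Of the 14 receptors tested, 1 was called: Fzd4, a Frizzled receptor, at 21.1, 23.6 and 12.8 CPM (log2 ratio -0.80, gap 0.16). Ror2, which binds Wnt5a, was at 28.4, 27.4 and 22.2 CPM and was not called. Wls, which carries WNT ligands out of the cell, was at 78.5, 85.3 and 81.4 CPM, between the controls.

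Of the 10 targets and feedback genes tested, Tcf7l2, a TCF transcription factor, was lower in the mutant at 225, 245 and 153 CPM (log2 ratio -0.62, gap 0.12). The Tcf7l2 call was lost with TMM factors (-0.50), with the stricter gate (-0.51) and without control 2 (-0.56). Tcf7, a factor of the same family, was higher at 13.4, 10.5 and 19.4 CPM (log2 ratio 0.71, gap 0.34). Its call was lost with the stricter gate (0.58), in thinned cells, where its mean was under 10 CPM, and without control 2 (0.54). The target gene Axin2, a feedback inhibitor, was at 24.5, 59.3 and 38.5 CPM, and Lef1 at 22.3, 6.41 and 8.45 CPM, and in both the mutant lay between the controls, which were far apart.

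Across 7 cell types and 3 libraries (21 points, which share libraries and depth), the genes whose log2(CPM + 1) followed each of the 10 most closely were described by Pearson's r, with no test. Frzb was most like Col11a1 (r = 0.98), Lhx6 (r = 0.98) and Rspo3 (r = 0.97). Wnt5a was most like Yipf5, Gulp1 and Col8a1 (r = 0.97 each). Wnt16 was most like Pam and Tmem132c (r = 0.94 each). Dkk2 was most like Rab30 (r = 0.98), Mcrip1 (r = 0.98) and C1qtnf6 (r = 0.97), and C1qtnf6 also led the list of Wnt11 (r = 0.95), which held Dkk2 itself in the next place. The epithelial ligands Wnt4 and Wnt6 were most like Krt19 (r = 0.94) and 2900026A02Rik (r = 0.95). The inhibitor Sfrp1 was most like St5 (r = 0.98), Sfrp2 most like Thsd4 (r = 0.98) and Dkk3 most like Mxd4 (r = 0.97).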

How the data were processed

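RNA of soft palate cells at E14.5 was profiled in 3 libraries, 2 control and 1 mutant. The authors deposited raw UMI counts per gene and barcode, made with Cell Ranger (4.0.0 in the methods and file headers, 3.1.0 in the submitters' processing notes, which name the build mm10) from the 10x Genomics 3′ kit. The controls were kept apart here. The number of cells and UMIs per library bounds the precision.

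Kept cells had at least 500 genes and at most 10% of UMIs from mitochondrial genes. Removed too were the barcodes with the highest Scrublet scores (scanpy 1.11.5), at a preset rate of 0.8% per 1000 barcodes. Cells were gated on marker genes. A class other than mesenchyme needed 3 markers and 5 marker UMIs per 10000, and palatal mesenchymal-like cells 2 of 7 markers. Subtypes needed 2 markers (midline 3). The markers were listed first, and the scoring rule was set after marker counts had been seen. Cells of several classes were left out as mixed. Cells of several subtypes stayed among the palatal mesenchymal-like cells but in no subtype. Raw counts were summed per type and library, and counts under 3 UMIs were raised to 3 where a logarithm was taken. Groups with under 50 cells in a library were not counted. The named genes were the 10 members, pathway genes that were called, Axin2, Lef1, Fzd4, Ror2 and Wls, and genes among the 3 most like each member, of which 1 is not reported here. TMM factors came from edgeR 4.0.16. The rule was run on simulated counts in which the controls differed by counting error alone. That run does not cover controls as far apart as the real ones. Python 3.11.15, numpy 2.4.6, scipy 1.17.1 and pandas 2.3.3 were used. The members and lists were chosen with earlier results of these data known. Alternatives were other cell filters, gates, weights, thinning, scaling, thresholds and leaving out each control.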

Additional observations from a re-analysis of the deposited data

Results flagged for a closer look

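Dkk2 and Frzb met the call rule in opposite directions in different groups of cells, and each positive Dkk2 value and the negative Frzb value came from a group with under 50 cells in a control. All gated groups with more than 3 UMIs of the gene in each library were searched. The log2 ratio of Dkk2 was -1.65 in perimysial-like cells, -0.82 in osteogenic-like cells, -0.59 in mesenchymal-like cells with no subtype and -1.20 in epithelial-like cells, but 0.68 in tendon-like cells and 2.02 in endothelial-like cells. In endothelial-like cells Dkk2 was at 15.7 CPM in control 1, 14.3 CPM in control 2 and 60.5 CPM in the mutant, from 4, 11 and 95 UMIs in 16, 78 and 211 cells. In tendon-like cells it was at 53.4, 66.1 and 94.96 CPM, from 29, 88 and 117 cells, and in osteogenic-like cells at 70.1, 73.8 and 40.6 CPM, from 135, 49 and 423 cells. The log2 ratio of Frzb was 1.998 in perimysial-like cells and -1.91 in cartilage-like cells, where its levels were 282, 174 and 59.0 CPM, from 13, 11 and 179 cells. The differences between the groups were not tested, since there is 1 mutant library.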

How the results depend on the processing

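Of the 10 genes, 3 were called in palatal mesenchymal-like cells, 3 without control 1 (Wnt5a, Wnt16 and Sfrp1) and 5 without control 2 (Wnt5a, Wnt16, Dkk2, Dkk3 and Frzb). In the 4 subtype groups 10 of the 33 tested pairs of gene and subtype were called, 5 of them in perimysial-like cells. Of all genes tested, 13.5% were called in perimysial-like, 7.98% in midline-like and 8.89% in progenitor-like cells, and 9.99% in cells with no subtype. Leaving out one control gave 15 to 16 pairs, and the share of all genes called in the subtypes was not counted there. In every count of this paragraph without a control, the rule has no gap to exceed and is looser, so the counts are not alike. For the pathway list 3 genes were called, 5 where each cell had the same weight, 1 at a minimum of 50 CPM, 14 with no minimum level, 0 at a fold of 2 and 6 to 8 without one control. Over all genes the 479 calls became 157 at 50 CPM, 3514 with no minimum level, 135 at a fold of 2 and 799 to 953 without one control. Where each cell had the same weight, 99 of all genes were called higher and 462 lower. The number of genes tested under each alternative is not given here, so these counts are not shares. The share of palatal mesenchymal-like cells with a UMI was compared by a looser rule, with no fold or level minimum. The mutant share lay outside both controls, and further from their mean than their gap, for 3 genes in thinned cells (Wnt5a, Wnt4 and Dkk3). In unthinned cells this held for 5 (Wnt5a, Wnt16, Sfrp1, Dkk3 and Frzb). Dkk2 was in neither list, and the count over all genes was not made. No called value changed sign. Within palatal mesenchymal-like cells, 7 of 88 alternative values moved by more than the standard deviation of the controls, and in subtypes 34 of 338. Leaving out a control cannot move a value that far, and the limit is widest where the controls differ most. These counts therefore do not measure how stable the values are. TMM factors moved the median log2 ratio of all genes from -0.05 to 0.06. Over the alternatives, Wnt5a ranged from -0.91 to -0.70, Wnt16 from -1.54 to -0.59 and Dkk2 from -1.01 to -0.42. The stricter gate gave no count for subtypes, since the midline-like gate already needs every marker. Alternatives were not run for each gene in epithelial-like cells. No paired analysis was possible because the groups share fewer than 2 replicate numbers, with 1 mutant library. The limits are the single mutant library, the unlike numbers of some cell types between libraries, and free RNA, whose total in each library was not measured. A further limit is the small number of UMIs behind Wnt4, Wnt6 and Wnt11.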
